A study of Mus musculus with 25 samples.

Results

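Csf1, Ptprb, Akap6, Akr1c18 and Cdh3 are 5 mouse genes that were chosen by their lower level in early invariant natural killer T (iNKT) cells without the Hippo kinase Mst1, out of 19505 genes with a symbol of their own among 22206 transcript clusters measured. Each of the 5 symbols had 1 cluster on the array. The values that chose them were the log2 levels of 4 Mst1KO_S1_S2 arrays and 6 WT_S1_S2 arrays, so those levels are given below as a description and carry no test.

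The series measured thymic iNKT cells of C57BL/6 mice on 25 Clariom S arrays. The groups were 4 Mst1KO_S1_S2 arrays, 2 dKOMst_S1_S2 arrays and 6 WT_S1_S2 arrays of the pooled stages S1 and S2, and 5 Mst1KO_S3 arrays, 1 dKOMst_S3 array and 7 WT_S3 arrays of the later stage S3. Mst1KO is the single knockout of Mst1 (gene Stk4) and dKOMst the combined Mst1/2 knockout, and WT carried neither deletion. All cells were sorted as positive for TCRb and the CD1d-PBS57 tetramer and negative for CD24, with S1 negative for CD44 and NK1.1, S2 positive for CD44 only and S3 positive for both. Because S1 and S2 were pooled, a shift between them within a pool cannot be told apart from a change within either stage. Neither the age and sex of the mice, nor how the alleles were made, nor whether each array is a separate animal is given in the labels, so p-values measure only the spread between arrays. In these bulk samples fewer cells of a type and less RNA per cell cannot be told apart.

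Mst1 is a kinase of the Hippo pathway, in which MST kinases act through LATS and NDR kinases and restrain the coactivators YAP and TAZ. In T cells it is also known for roles in adhesion, trafficking and survival. iNKT cells recognise lipids on CD1d and pass through CD44-negative and CD44-positive stages in the thymus before gaining NK receptors and interferon-gamma production. The 5 genes belong to unlike families. Csf1 encodes the secreted cytokine that drives macrophage growth through Csf1r. Ptprb encodes a receptor tyrosine phosphatase best known from endothelium, where it acts on Tie2 and VE-cadherin. Cdh3 encodes P-cadherin, an adhesion molecule. Akap6 encodes an anchoring protein that tethers protein kinase A, studied mostly in muscle, and Akr1c18 encodes a 20-alpha-hydroxysteroid dehydrogenase that inactivates progesterone.

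The start regions of the genes are shown because the 5 genes were all lower in Mst1KO_S1_S2, and RefSeq's table for GRCm38.p6 held 3 of the 5. Each window has 300 bases, 250 before and 50 after the gene's start, and reads along the gene's strand. It lies at chr3:107760420-107760719 on the minus strand for Csf1, chr12:52699133-52699432 on the plus strand for Akap6 and chr13:4150597-4150896 on the minus strand for Akr1c18. Capitals mark every match to the motifs searched.
Csf1: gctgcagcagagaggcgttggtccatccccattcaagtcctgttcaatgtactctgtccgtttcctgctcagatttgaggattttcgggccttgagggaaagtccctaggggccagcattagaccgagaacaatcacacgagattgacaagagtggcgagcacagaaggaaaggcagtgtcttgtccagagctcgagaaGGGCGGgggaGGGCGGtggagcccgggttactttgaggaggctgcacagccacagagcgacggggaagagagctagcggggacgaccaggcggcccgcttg
Akap6: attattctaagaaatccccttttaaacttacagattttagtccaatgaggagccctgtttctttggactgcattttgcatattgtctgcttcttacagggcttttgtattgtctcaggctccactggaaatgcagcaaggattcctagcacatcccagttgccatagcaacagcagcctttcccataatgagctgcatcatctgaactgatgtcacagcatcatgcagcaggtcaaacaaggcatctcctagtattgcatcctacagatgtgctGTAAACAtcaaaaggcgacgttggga
Akr1c18: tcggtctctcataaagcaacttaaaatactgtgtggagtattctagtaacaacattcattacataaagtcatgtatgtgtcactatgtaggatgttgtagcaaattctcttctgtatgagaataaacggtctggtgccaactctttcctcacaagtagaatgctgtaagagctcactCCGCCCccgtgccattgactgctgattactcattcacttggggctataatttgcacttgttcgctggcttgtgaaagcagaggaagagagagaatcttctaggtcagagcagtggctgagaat
The motifs searched on both strands were AP-1 (TGANTCA), TEAD (GGAATG), FOXO (GTAAACA), CRE (TGACGTCA) and the GC box (GGGCGG), and no 2 of the matches overlapped. A GC box stood in the windows of Csf1, at -51 and -41 from the gene's start, and of Akr1c18, on the other strand at -73, and in 35.7% of the 32851 windows in the table. The FOXO letters stood once in the Akap6 window, at 25 after the start, and in 3.65% of all windows. The letters of AP-1, TEAD and CRE, held by 7.81%, 14.7% and 1.79% of all windows, are not in these 3 windows. The GC content was 58.7% for Csf1, 43.7% for Akap6 and 42.3% for Akr1c18, against a median of 52.7% over all windows. No motif was shared by the 3 windows.

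Some facts of the arrays bear on the 5 genes. The level of a cluster was read against the median of the negative control items of its own array, which lay between 6.19 and 6.59 on the log2 scale. The mRNA of Stk4, the gene of Mst1, averaged 9.31 ± 0.07 (SD, n = 4) in Mst1KO_S1_S2 and 10.46 ± 0.19 (SD, n = 6) in WT_S1_S2, and its fitted difference was -0.92 ± 0.16 (SE, limma adjusted p = 0.00592), a call lost when only arrays with Y-linked signal were used. At S3 the fitted Stk4 difference was -0.35 ± 0.15 (SE, limma adjusted p = 0.152). On the dKOMst arrays Stk4 read 9.63 and 10.27 at S1_S2, both above every Mst1KO_S1_S2 array (highest 9.40) and 1 of them within the WT_S1_S2 range of 10.18 to 10.74. At S3 the dKOMst array read 10.08, within the WT_S3 range of 9.69 to 10.73 and also within the Mst1KO_S3 range of 9.43 to 10.13. The WT_S3 and Mst1KO_S3 ranges overlapped. The Stk4 level therefore bears out the loss of Mst1 neither in the libraries labelled dKOMst nor in those labelled Mst1KO_S3. Where its cluster lies relative to the deleted part is not known here, so Stk4 is an incomplete check of the labels. The markers of iNKT and T cells, such as Cd3e and the transcription factor Zbtb16, read above the controls in all 6 groups, 11 of 11 genes, with list means of 11.21 to 11.75. The labels' sort was also visible in Klrb1c, the gene of NK1.1, at 12.39 ± 0.13 (SD, n = 5) in Mst1KO_S3 and 8.87 ± 0.10 (SD, n = 4) in Mst1KO_S1_S2. The sample titles carry serial numbers, and at 1 step in them the order of the groups starts again. The numbers were split into blocks there, which the labels do not call batches. All Mst1KO arrays lay in the first block of numbers, all dKOMst arrays in the second and WT arrays in both, so the block was a term in the fit, which called 1362 clusters for it but none of the 5 genes (limma adjusted p from 0.408 to 0.943). Signal from Y-linked genes was missing on Mst1KO replicates 3 and 4 of both stages, and values without those arrays are given with the comparison.

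**Figure D1:**
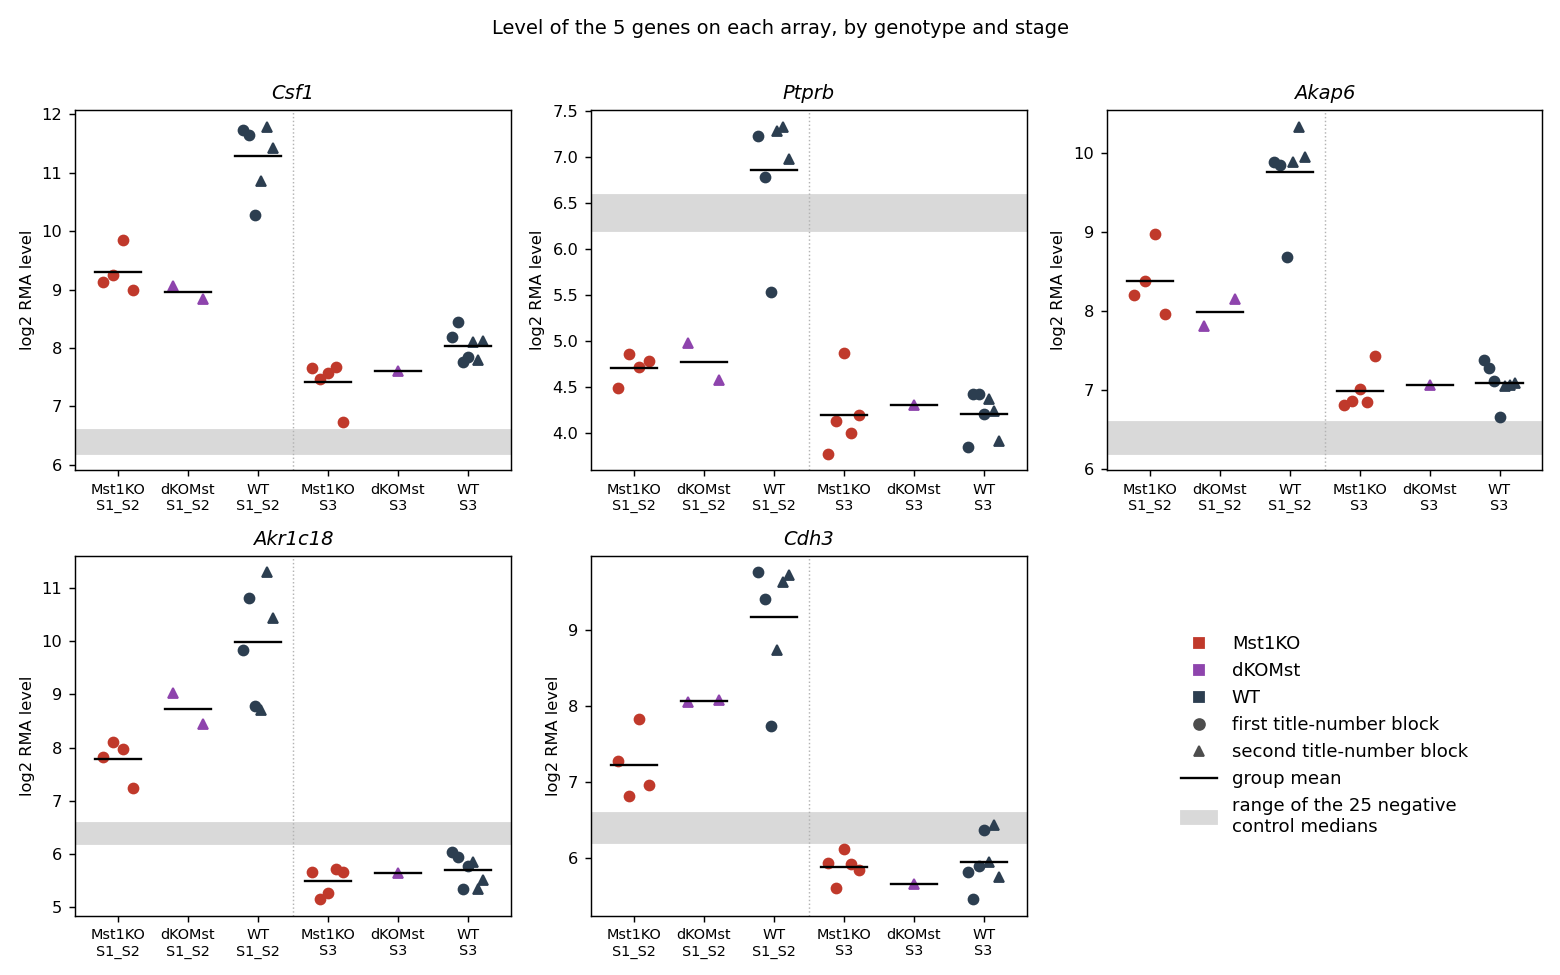
Log2 RMA level of Csf1, Ptprb, Akap6, Akr1c18 and Cdh3 (vertical axes, which do not start at 0 and differ between panels) on each array of the 6 groups. Points are arrays, circles for the first and triangles for the second block of title numbers, bars are group means, and the grey band spans the 25 negative control medians from 6.19 to 6.59. Each gene was highest in WT_S1_S2, and Ptprb lay above the band only on 5 WT_S1_S2 arrays.

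In cells of S1 and S2 without Mst1, the secreted cytokine gene Csf1 stood well below WT. Its level was 9.13, 9.25, 9.85 and 8.99 in Mst1KO_S1_S2, and the 6 WT_S1_S2 arrays had a lowest level of 10.28, a median of 11.53 and a highest of 11.79. The groups did not overlap, and every array of both read above its negative controls. The fitted difference was -1.96 ± 0.27 (SE), a 3.89-fold lower level. In the libraries labelled dKOMst_S1_S2 Csf1 read 9.06 and 8.84, inside or just under the range of Mst1KO_S1_S2 and below every WT_S1_S2 array.

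Csf1 was also the 1 gene of the 5 whose arrays separated at S3. It read 7.65, 7.47, 7.57, 7.68 and 6.73 in Mst1KO_S3, and in the 7 WT_S3 arrays the lowest level was 7.76, the median 8.11 and the highest 8.45. All 5 Mst1KO_S3 arrays lay under all 7 WT_S3 arrays, a separation downwards that 1.07% of all clusters showed. The means were 7.42 ± 0.39 (SD, n = 5) in Mst1KO_S3 and 8.04 ± 0.25 (SD, n = 7) in WT_S3. The fitted difference was -0.60 ± 0.24 (SE, 95% interval -1.11 to -0.10, limma adjusted p = 0.138), which missed the threshold of an adjusted p of 0.05 over all clusters. The difference of the means was -0.62. An exact two-sided permutation test of it over the 792 ways to label these arrays gave p = 0.00253 before any adjustment. That p follows largely from the separation of the arrays, and the labels were permuted without regard to the number block. Across the settings tried the difference ran from -0.74 to -0.43 and the limma adjusted p from 0.0995 to 0.341. The single dKOMst_S3 array read 7.60, below the 3 WT_S3 arrays of its own number block with their mean of 8.01. From high to low the group means of Csf1 ran WT_S1_S2, Mst1KO_S1_S2, dKOMst_S1_S2, WT_S3, dKOMst_S3 and Mst1KO_S3. The neighbours Mst1KO_S1_S2 and dKOMst_S1_S2 overlapped, as did dKOMst_S3 and Mst1KO_S3.

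Ptprb, the receptor phosphatase, was the dimmest of the 5 against the controls. It read 4.48, 4.86, 4.71 and 4.78 in Mst1KO_S1_S2, all below the negative controls, and in WT_S1_S2 the lowest level was 5.53, the median 7.10 and the highest 7.33. The groups did not overlap, and 5 of the 6 WT_S1_S2 arrays read above their controls, the exception being replicate 3 at 5.53. The fitted difference was -2.00 ± 0.27 (SE). With no Mst1KO_S1_S2 array above its controls only a bound on that difference can be given, -0.35 on the log2 scale, from the WT mean of 6.86 against the control medians. In dKOMst_S1_S2 it read 4.97 and 4.57, again below the controls and below every WT_S1_S2 array.

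No S3 array of any genotype read above its controls for Ptprb. Levels ran from 3.77 to 4.87 in Mst1KO_S3, stood at 4.30 in dKOMst_S3, and ran from 3.84 to 4.42 in WT_S3. The fitted difference of Mst1KO_S3 from WT_S3 was 0.12 ± 0.24 (SE, limma adjusted p = 0.801), between values that are all under the controls and so have no order. Against the stricter 95th percentile of the negative controls, Ptprb exceeded it on 0 arrays, Csf1 on 7, Akap6 on 5, Akr1c18 on 4 and Cdh3 on 2 of the 25. By the control medians Ptprb was read above background in 1 of the 6 groups.

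Cdh3, the gene of P-cadherin, was read above the controls on every S1_S2 array. Its level was 7.27, 6.82, 7.83 and 6.96 in Mst1KO_S1_S2, and the WT_S1_S2 arrays had a lowest level of 7.74, a median of 9.53 and a highest of 9.77. The groups overlapped only through Mst1KO replicate 3 at 7.83 and WT replicate 3 at 7.74. The fitted difference was -1.82 ± 0.31 (SE), 3.53-fold lower. In dKOMst_S1_S2 it read 8.06 and 8.08, above all 4 Mst1KO_S1_S2 arrays and within the WT range, with a fitted difference from WT_S1_S2 of -1.24 ± 0.39 (SE).

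At S3 Cdh3 lay near or under the controls in every genotype. It ran from 5.60 to 6.11 in Mst1KO_S3, read 5.65 in dKOMst_S3 and ran from 5.45 to 6.43 in WT_S3, and exceeded the controls on 0 of 5, 0 of 1 and 2 of 7 arrays. The difference of Mst1KO_S3 from WT_S3 was 0.05 ± 0.28 (SE, 95% interval -0.54 to 0.63, limma adjusted p = 0.938). The group means ran from WT_S1_S2 through dKOMst_S1_S2 and Mst1KO_S1_S2 to the 3 S3 groups, which overlapped one another, as did dKOMst_S1_S2 and WT_S1_S2.

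Akap6, which encodes the kinase anchor, was above the controls on all 25 arrays. It read 8.20, 8.37, 8.97 and 7.96 in Mst1KO_S1_S2, and in WT_S1_S2 the lowest level was 8.68, the median 9.88 and the highest 10.33. Mst1KO replicate 3 lay above WT replicate 3, and the other 3 Mst1KO_S1_S2 arrays lay below all WT_S1_S2 arrays. The fitted difference was -1.26 ± 0.24 (SE), 2.39-fold lower. In dKOMst_S1_S2 Akap6 read 7.81 and 8.15, below every WT_S1_S2 array and overlapping Mst1KO_S1_S2.

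At S3 the Akap6 levels of the genotypes overlapped. They were 6.81, 6.86, 7.01, 6.84 and 7.42 in Mst1KO_S3 and 7.06 in dKOMst_S3, and the 7 WT_S3 arrays had a lowest level of 6.66, a median of 7.08 and a highest of 7.38. All of these arrays read above the median of their controls, by a mean of 0.49 in Mst1KO_S3 and 0.80 in WT_S3. On 0 of them did Akap6 exceed the 95th percentile of the controls. The S3 difference, taken this near to background, was 0.01 ± 0.22 (SE, 95% interval -0.44 to 0.46, limma adjusted p = 0.988). The plain means of 6.99 in Mst1KO_S3 and 7.09 in WT_S3 differed by -0.10 (exact permutation p = 0.479). The means ran WT_S1_S2, Mst1KO_S1_S2, dKOMst_S1_S2, WT_S3, dKOMst_S3 and Mst1KO_S3, and the last 3 overlapped one another. Whether the S1_S2 and S3 differences differ was not tested, because the first chose the gene.

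Akr1c18, the steroid dehydrogenase, had the widest spread of these genes among WT_S1_S2 arrays. It read 7.83, 8.11, 7.97 and 7.24 in Mst1KO_S1_S2, and the WT_S1_S2 arrays had a lowest level of 8.70, a median of 10.13 and a highest of 11.30, an SD of 1.07. The groups did not overlap. The fitted difference was -2.17 ± 0.40 (SE), 4.49-fold lower. In dKOMst_S1_S2 it read 9.02 and 8.44, above all 4 Mst1KO_S1_S2 arrays and overlapping WT_S1_S2, with a fitted difference from WT_S1_S2 of -1.27 ± 0.49 (SE).

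No S3 array of any genotype read above the controls for Akr1c18. The levels ran from 5.15 to 5.72 in Mst1KO_S3, stood at 5.65 in dKOMst_S3 and ran from 5.34 to 6.04 in WT_S3. Their fitted difference was -0.18 ± 0.36 (SE, limma adjusted p = 0.797). Among the S1_S2 groups the order of its means was WT, dKOMst and Mst1KO, and only dKOMst and WT overlapped.

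Set together, 3 of the 5 genes (Csf1, Ptprb and Akr1c18) had every Mst1KO_S1_S2 array below every WT_S1_S2 array, which 1.08% of all clusters did. Since this contrast chose the genes, nothing follows from that count. In the limma fit 0.522% of the clusters passed an adjusted p of 0.05 in this contrast in either direction and 0.194%, 43 clusters, were lower in Mst1KO_S1_S2. Within the first block of title numbers alone, which holds all 4 Mst1KO_S1_S2 arrays and 3 of the WT_S1_S2 arrays, the differences were -1.91 for Csf1, -1.80 for Ptprb, -1.09 for Akap6, -2.02 for Akr1c18 and -1.76 for Cdh3. Using only arrays with Y-linked signal they were -2.08, -2.03, -1.35, -1.99 and -2.00 in the same order of genes.

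**Figure D2:**
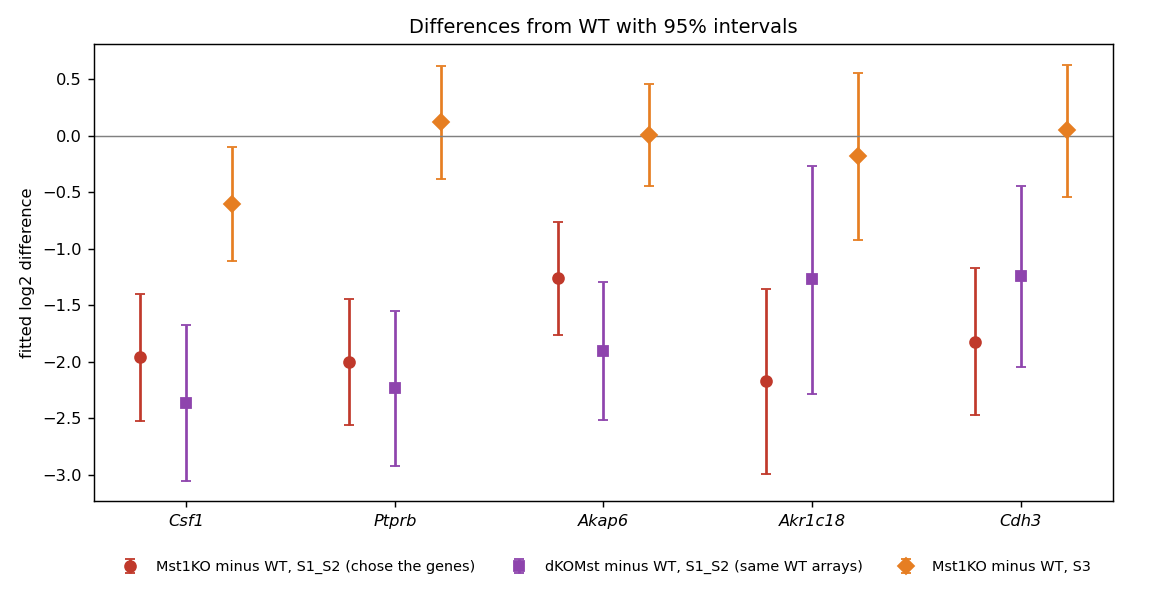
Fitted log2 difference from WT (vertical axis) with its 95% interval for the 5 genes in Mst1KO at S1_S2 (circles), dKOMst at S1_S2 (squares) and Mst1KO at S3 (diamonds). The S1_S2 differences lie between -2.36 and -1.24, and the S3 differences between -0.60 and 0.12. The circles chose the genes, the squares share their WT arrays, and levels under the negative controls are drawn as measured.

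At S3, the comparison whose arrays the choice of genes did not use, 0 of the 5 genes passed the limma threshold of an adjusted p of 0.05 between Mst1KO_S3 and WT_S3, which 6.37% of all clusters passed, 2.64% being lower in Mst1KO_S3. At an unadjusted p under 0.05 the count was 1 of 5, Csf1, against 23.6% of all clusters. Only Csf1 and Akap6 could be compared above the control medians on both sides. Neither exceeded the 95th percentile of the controls on any of these arrays. For Ptprb and Akr1c18 both groups were under the controls, and for Cdh3 the Mst1KO_S3 group was, so a difference between those genotypes was not measurable at this signal. The fit drew its block term and spread from all 25 arrays, those that chose the genes included. Whether S3 and S1_S2 arrays came from the same mice is not given in the labels, so the stages may share animals. None of the 5 passed in any of the settings tried, among them a fit of only the groups compared. Markers called between these S3 groups are given with the iNKT subsets below.

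In dKOMst_S1_S2 the fitted differences from WT_S1_S2 were -2.36 ± 0.33 for Csf1, -2.23 ± 0.33 for Ptprb with a bound of -0.51, and -1.90 ± 0.30 for Akap6 (SE). Those of Akr1c18 and Cdh3, given above, were smaller than those of Csf1 and Akap6, and with only a bound Ptprb cannot be placed. This comparison uses the WT_S1_S2 arrays that chose the genes, so it stands beside the Mst1KO differences as values with no test. Both dKOMst_S1_S2 arrays lay below all WT_S1_S2 arrays for Csf1, Ptprb and Akap6, a separation that 6.68% of clusters showed with only 2 arrays on one side. Against the 3 WT_S1_S2 arrays of their own number block the differences were -2.41, -2.43 and -2.07 for these genes, -1.42 for Akr1c18 and -1.30 for Cdh3.

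Markers moved in the dKOMst_S1_S2 comparison too. limma called the sort gene Klrb1c lower, with -1.18 ± 0.25 (SE, adjusted p = 0.0198), and 2 of 10 macrophage genes higher, Itgam with 0.93 ± 0.18 (SE, adjusted p = 0.00803) and Lyz2 with 0.70 ± 0.16 (SE, adjusted p = 0.0369). The macrophage list means were 6.63 to 6.66 in dKOMst_S1_S2 and 6.27 to 6.56 in WT_S1_S2. Of the endothelial list, Eng was lower, with -1.50 ± 0.36 (SE, adjusted p = 0.0467). Of 19 settings these calls were kept in 12 for Klrb1c, 16 for Itgam, 9 for Lyz2 and 8 for Eng, and none of the 4 was called without dKOMst_S1_S2 replicate 1. Among iNKT subset markers, limma called Ly6c2 higher, with 1.45 ± 0.11 (SE, adjusted p = 4.66e-08). It called Il4 lower, with -0.90 ± 0.15 (SE, adjusted p = 0.00263). How the Ly6c2 and Il4 calls hold over the settings is not given here. The part of all these markers in the differences was not tested.

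Between the stages of WT cells, all 5 genes stood lower at S3 than at S1_S2. The fitted differences of WT_S3 from WT_S1_S2 were -3.25 ± 0.22 for Csf1 and -2.65 ± 0.19 for Akap6 (SE), with every array above its controls. For Cdh3 it was -3.21 ± 0.25 (SE), taken against WT_S3 levels of which 2 of 7 were above the controls, so its size is not well measured. For Akr1c18 the difference was -4.28 ± 0.31 (SE) with a bound of -3.69, and for Ptprb -2.63 ± 0.21 (SE) with a bound of -0.57, because no WT_S3 array exceeded its controls. No WT_S3 array of any of the 5 reached the lowest WT_S1_S2 array, which 3.42% of clusters showed downwards, against 16.9% of clusters called by limma between these stages in either direction. These WT_S1_S2 arrays too chose the genes, so no test is given.

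Other markers moved between the WT stages. All 11 NKT1 genes were called higher and all 10 NKT2 genes lower in WT_S3. Of 10 macrophage genes 4 were higher in WT_S3, among them Lyz2 with 1.00 ± 0.11 (SE, adjusted p = 1.55e-07) and C1qa with 1.48 ± 0.18 (SE, adjusted p = 1.22e-06), and the list means were 6.78 to 6.96 in WT_S3 and 6.27 to 6.56 in WT_S1_S2. Of the endothelial genes Pecam1 was lower, with -1.33 ± 0.11 (SE, adjusted p = 3.72e-09), as was Eng, with -2.36 ± 0.24 (SE, adjusted p = 6.83e-08). Their part in the stage differences was not tested.

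Among Mst1KO cells the genes measured at both stages were also lower at S3. The means of Mst1KO_S3 lay below those of Mst1KO_S1_S2 by a difference of -1.89 for Csf1 and -1.39 for Akap6, with no overlap of arrays. For Akr1c18 and Cdh3 the bounds were -1.29 and -0.72. In levels, Mst1KO_S1_S2 thus stood between WT_S3 and WT_S1_S2 for Csf1, Akap6, Akr1c18 and Cdh3.

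One WT array stood apart. Replicate 3 of WT_S1_S2 was the lowest of its group for Csf1, Ptprb, Akap6 and Cdh3, and replicate 4 was lowest for Akr1c18, at 8.70 against 8.79 in replicate 3. Over the 5 genes the mean deviation of replicate 3 from the group means was -1.21. Several marker lists moved on the same array. Its mean over the NKT1 list was 9.32, against 8.46 to 8.95 on the other 5 arrays, with 4 of 11 genes above the other arrays (Ifng, Klrd1, Klrk1 and Xcl1), 6 within their range and 1 below. Klrb1c, the gene of NK1.1, was within it, at 9.52 against 8.49 to 10.15. The NK receptor gene Klrc1, which is in no list and was picked out after its values were seen, read 8.49 on replicate 3 and was above the controls on no other S1_S2 array. The NKT2 mean was the lowest of the group, at 11.07 against 11.09 to 11.41, and so was the NKT17 mean, at 8.83 against 9.15 to 9.76. Some lists of other cell types were at the top of the group on it. These were endothelium at 6.74 against 6.43 to 6.64 and fibroblasts at 6.84 against 6.36 to 6.55, macrophages at 6.56 against 6.27 to 6.49 and thymic epithelium at 6.59 against 6.45 to 6.59. The B cell list, at 6.50 against 6.19 to 6.61, was within the range of the others. The double-positive thymocyte list, at 7.45 against 7.52 to 7.91, was below it. Replicate 3 also had the highest array median, 7.39, and the lowest positive control median, 9.78, of the 25 arrays. The part of these in the low levels was not tested. Without replicate 3 the differences of Mst1KO_S1_S2 from WT_S1_S2 were -2.28 for Csf1, -2.38 for Ptprb, -1.57 for Akap6, -2.55 for Akr1c18 and -2.24 for Cdh3, each larger than with it.

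**Figure D3:**
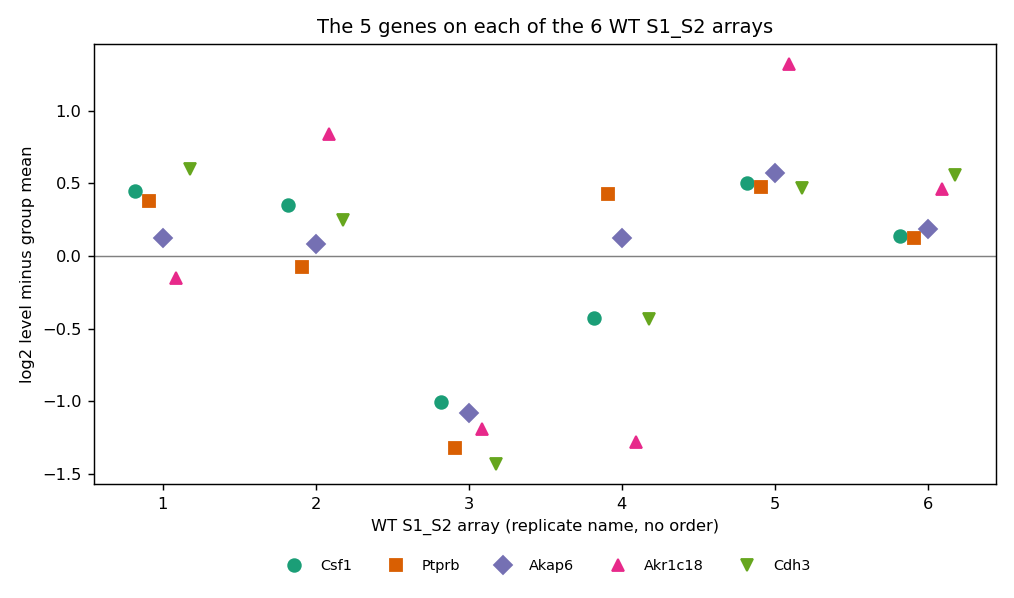
Deviation of the 5 genes from their WT_S1_S2 group mean (vertical axis, log2) on each of the 6 WT_S1_S2 arrays (horizontal axis). Replicate 3 lies below the mean for all 5 genes, with a mean deviation of -1.21.

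Some marker genes of iNKT subsets were called beside the 5 genes at S1_S2. The NKT2 list, genes of the interleukin-4-producing subset, had array means of 10.86 to 11.04 in Mst1KO_S1_S2 and 11.07 to 11.41 in WT_S1_S2. Of its 10 measured genes 2 were lower by limma, Il4 with -0.78 ± 0.13 (SE, adjusted p = 0.00251) and Izumo1r with -0.63 ± 0.09 (SE, adjusted p = 0.000634), and its median difference was -0.26 against -0.01 over all clusters. The NKT17 list had array means of 9.96 to 10.19 in Mst1KO_S1_S2 and 8.83 to 9.76 in WT_S1_S2, a median difference of 0.69, with 0 of 9 genes called by limma and 5 at an unadjusted p under 0.05. In the NKT1 list, genes of the interferon-producing subset, 2 of 11 were higher, Ifng with 1.48 ± 0.28 (SE, adjusted p = 0.0122) and Ly6c2 with 1.15 ± 0.09 (SE, adjusted p = 7.92e-08), while the list means of 8.82 to 9.14 in Mst1KO_S1_S2 lay within the 8.46 to 9.32 of WT_S1_S2. The calls of Il4, Izumo1r and Ly6c2 were kept in all 21 settings and that of Ifng in 16, being lost without WT_S1_S2 replicate 1 or Mst1KO_S1_S2 replicate 2 among others. Klrc1 was above the controls on 0 of 4 Mst1KO_S1_S2 arrays. The part of a changed subset mix in the lower levels was not tested. At S3 limma called markers between Mst1KO_S3 and WT_S3 as well. Of the 10 NKT2 genes 3 were lower in Mst1KO_S3, among them Il4 and Il13, and 1 was higher, Il6ra. Of 11 NKT1 genes 2 were higher, Ifng and Ly6c2, and of 9 NKT17 genes 1, Ccr6. Of 6 double-positive thymocyte genes Cd8b1 was higher and Cd4 lower. Thy1 was higher too, as was Cd24a, which was above the controls on 0 arrays of either group. The part of these in the S3 levels was not tested.

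Genes of other cell types were checked because Csf1, Ptprb and Cdh3 are better known outside T cells. Of the 11 endothelial genes measured, Cdh5, Tek, Kdr and Emcn read above the controls on 0 of the 25 arrays, while Pecam1 and Esam did on 25, Eng on 23 and Tie1 on 22. Pecam1 averaged 9.61 ± 0.14 (SD, n = 4) in Mst1KO_S1_S2 and 9.68 ± 0.08 (SD, n = 6) in WT_S1_S2. In all, 5 of the 11 exceeded the controls on some Mst1KO_S1_S2 array and 5 on some WT_S1_S2 array. The list means were 6.39 to 6.49 in Mst1KO_S1_S2 and 6.43 to 6.74 in WT_S1_S2. In that list 1 of 11 genes was lower in Mst1KO_S1_S2, Eng, which encodes the TGF-beta coreceptor endoglin, with 7.43 ± 0.50 (SD, n = 4) against 9.07 ± 0.35 (SD, n = 6) in WT_S1_S2 and a difference of -1.62 ± 0.30 (SE, limma adjusted p = 0.00756), called in all 21 settings. Of the thymic epithelial genes Foxn1 and Prss16 were above the controls on 0 arrays, while 5 of the 10 were on some Mst1KO_S1_S2 array and 7 on some WT_S1_S2 array. Among these Ccl25 and Krt14 exceeded them on all 25 arrays and Epcam on 24. The list means were 6.44 to 6.70 in Mst1KO_S1_S2 and 6.45 to 6.59 in WT_S1_S2. In this contrast 0 of 10 epithelial, 0 of 6 fibroblast, 0 of 10 macrophage and 0 of 4 B cell genes were called by limma, of which 1 macrophage gene had an unadjusted p under 0.05. The part of other cells in the levels of the 5 genes was not tested. Csf1r, the receptor for the Csf1 product, read above the controls on 0 of 4 Mst1KO_S1_S2 arrays and 1 of 6 WT_S1_S2 arrays. Col1a1 was above the controls throughout, at 8.63 ± 0.18 (SD, n = 4) in Mst1KO_S1_S2 and 8.56 ± 0.22 (SD, n = 6) in WT_S1_S2.

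Relatives of the 5 genes, which were not chosen on this contrast, are given as a description of the families. Of 100 other genes measured over 6 lists of relatives, 0 were called by limma between Mst1KO_S1_S2 and WT_S1_S2, and 11 had an unadjusted p under 0.05, as had 8.65% of all clusters. Among the CSF ligands and receptors, 15 measured, the differences ran from -0.23 to 0.26, with a median of -0.06. Among 19 receptor-type phosphatase genes they ran from -0.81 to 0.41, the lowest being Ptprj, a regulator of antigen receptor signalling, at -0.81 ± 0.20 (SE, limma adjusted p = 0.0833). In the angiopoietin and Tie pathway, 8 measured, they ran from -0.20 to 0.25.

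The 23 A-kinase anchors and protein kinase A subunits ran from -0.45 to 0.27. The 13 aldo-keto reductases ran from -0.49 to 0.31. Of the Akr1c genes, closely related in sequence so that probes may share signal, Akr1c12 had a difference of -0.48 and Akr1c13 one of -0.49, and Akr1c6, Akr1c14, Akr1c19 and Akr1c21 were above the controls on 0 arrays. The 22 cadherins and catenins ran from -0.58 to 0.20, the lowest being Cdh1, which encodes E-cadherin, with an adjusted p of 0.303. Of 16 YAP and TAZ target genes 2 were higher in Mst1KO_S1_S2, Dock5 by 0.92 ± 0.21 (SE, adjusted p = 0.0479) and Gadd45b by 0.69 ± 0.16 (SE, adjusted p = 0.0389), and the list's median was 0.01. These calls were unsteady, kept in 8 and 7 of 21 settings.

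**Figure D4:**
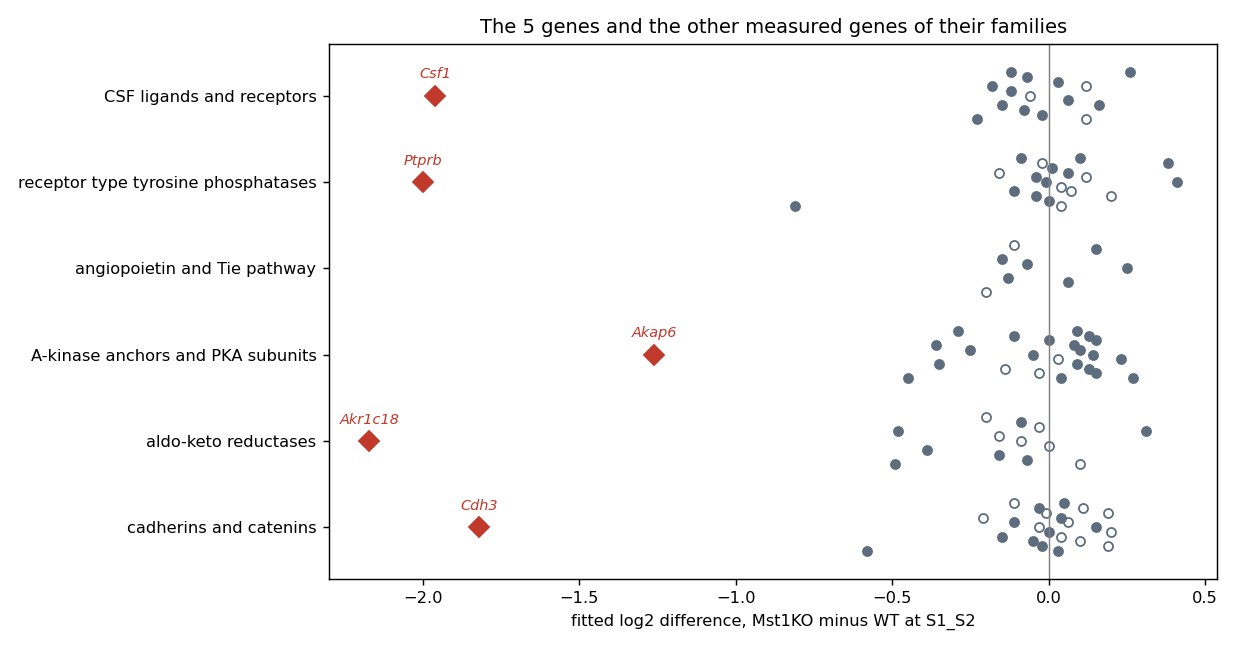
Fitted log2 difference of Mst1KO_S1_S2 from WT_S1_S2 (horizontal axis) for the 5 chosen genes (diamonds) and 100 other genes of 6 lists of relatives (circles, open where above the negative controls on no array; vertical scatter within a row has no meaning). The circles lie between -0.81 and 0.41, and the diamonds between -2.17 and -1.26.

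The relatives were also compared in the other contrasts. At S3, Ptprj differed by -0.74 ± 0.18 (SE, limma adjusted p = 0.0188) and Ptpru by -0.32 ± 0.09 (SE, adjusted p = 0.0354), both lower in Mst1KO_S3. Prkacb, a catalytic subunit of protein kinase A, was lower there by a difference of -0.33 ± 0.10 (SE, adjusted p = 0.0478), a call kept in 7 of 23 settings against 21 for Ptprj and 12 for Ptpru. By limma 0 of the 15 CSF, 8 Tie, 13 aldo-keto reductase and 22 cadherin genes were called. In the same order 2, 3, 3 and 5 had an unadjusted p under 0.05, as had 23.6% of all clusters. Of the YAP and TAZ targets, Dock5 rose by 0.74 ± 0.19 (SE, adjusted p = 0.0234) and the mitotic gene Birc5 by 0.53 ± 0.12 (SE, adjusted p = 0.0114), kept in 18 and 21 of 23 settings. In dKOMst_S1_S2 the 1 target called against WT_S1_S2 was lower, Ajuba, with -1.61 ± 0.31 (SE, limma adjusted p = 0.00791).

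The cadherin family parted in the other contrasts. In dKOMst_S1_S2, where limma called 0.923% of clusters against WT_S1_S2, the catenin gene Jup (plakoglobin) averaged 10.14 ± 0.13 (SD, n = 2) against 8.64 ± 0.35 (SD, n = 6) in WT_S1_S2, a difference of 1.64 ± 0.27 (SE, adjusted p = 0.00152), which was not called without dKOMst_S1_S2 replicate 1 or within the second number block. Cdh24 was higher by 0.82 ± 0.11 (SE, adjusted p = 0.000327), a call also lost within the second number block, which holds all dKOMst arrays. Between WT stages Cdh1 ran against Cdh3, at 11.10 ± 0.41 (SD, n = 7) in WT_S3 and 8.69 ± 0.37 (SD, n = 6) in WT_S1_S2, a difference of 2.44 ± 0.16 (SE, adjusted p = 6.15e-11), while Cdh3 was lower in WT_S3. Ptprj likewise was higher in WT_S3, by 1.34 ± 0.16 (SE, adjusted p = 1.1e-06), while Ptprb was lower there.

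The genes whose levels ran most like those of the 5 were found by Pearson correlation over the 25 arrays among 12511 genes above the controls on average. The arrays fall into stages, so the correlation mainly follows the gap between stages and is a description. The nearest genes were Il4 for Csf1 (r = 0.948), Aldh2 for Ptprb (r = 0.89), Smpdl3b for Akap6 (r = 0.928), Vsig2 for Akr1c18 (r = 0.968) and Tgm3 for Cdh3 (r = 0.951). Only 8 different genes filled the 15 nearest places, 3 for each gene. The transglutaminase gene Tgm3 and the phosphodiesterase-like gene Smpdl3b each stood near 4 of the 5 genes, Vsig2 near 2, and Il4, Aldh2, Mrpl52, Smtn and Adh1 near 1 each. Ptprb was not above the controls on 20 of the 25 arrays, where its values have no order, so its neighbours rest mainly on 5 WT_S1_S2 arrays. Akr1c18 and Cdh3 were not above them on 13 and 11 arrays. By rank correlation 4 of these 15 places were kept, so the exact neighbours depend on the measure. At S3 Il4 was lower in Mst1KO_S3, by a difference of -0.72 ± 0.11 (SE, limma adjusted p = 0.000543), while the limma adjusted p of the other 7 ran from 0.487 to 0.992.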

How the data were processed

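RNA of sorted thymic iNKT cells was amplified with NuGEN kits, per the labels' protocols, and measured on Clariom S arrays. The deposited values are log2 levels. Per the submitters' processing notes, the authors made them with Affymetrix Expression Console 1.1 by RMA. For other upstream tools no version is stated in the sources used here, nor is a genome build. RMA compresses differences between dim levels. Depth has no counterpart on arrays, and their number limits the precision.

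Of 28846 items, 6640 controls were left out, and the values of 22206 clusters, 19572 of them with exactly 1 symbol and 2634 with none, were used with no further normalization. Arrays were grouped by the labels. limma 3.58.1 (lmFit and eBayes) in R 4.3.3 was fitted to all clusters of the 25 arrays with 6 group means and a term for the block of title numbers, with 18 residual degrees of freedom. Called means a Benjamini-Hochberg adjusted p under 0.05 over all clusters. Exact two-sided permutation tests were run over array labels, without regard to the number block. The code was tested on simulated data.

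A level is above background where it exceeds the median of the array's 5222 negative control items. Where no array of a group does, the bound sets each of its arrays to its control median unless its own level is higher, and subtracts the brighter group's mean from theirs. The 5 genes, the lists and the tests were chosen with earlier results of these data known. Other genes named are, by rule, the 3 most alike by Pearson correlation (predicted genes, small RNAs and olfactory or vomeronasal receptors left out), up to 5 called or otherwise the lowest-p genes of a family list, and up to 3 called markers a list. Arrays with no Y-linked signal were those with a mean of 6 or less over 3 Y-linked genes. The alternatives were no or a random block, 1 block only, only the groups compared, array weights, quantile normalization and centring on the array median. Others were a trended and robust variance, only clusters above the controls, a term for Y-linked signal, only arrays with that signal and leaving out each array. No values were left out of the fit or imputed.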

Additional observations from a re-analysis of the deposited data

Results flagged for a closer look

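Of 20 pairs of gene and group with 4 to 7 arrays, 3 had 1 array far from the others, where chance gives about 1 in 20. Csf1 read 6.73 on replicate 5 of Mst1KO_S3, with the next array at 7.47 and the highest at 7.68. Ptprb read 5.53 on replicate 3 of WT_S1_S2, with the next at 6.78 and the highest at 7.33, and Akap6 read 8.68 on the same array, with the next at 9.84 and the highest at 10.33. The differences without WT_S1_S2 replicate 3 stand in the report.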

How the results depend on the processing

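Over every alternative run, the differences of the 5 genes from WT_S1_S2 in Mst1KO_S1_S2, dKOMst_S1_S2 and WT_S3 kept their direction and moved by at most 0.32 to 0.42, less than the residual SD of the fit for each gene (0.38 to 0.63), although Ptprb, with 0.40, moved by more than the SD of some of its single groups. None of the 5 passed the limma threshold between Mst1KO_S3 and WT_S3 in any setting, and Csf1 and Akr1c18 kept their direction there. The other S3 differences were near 0 and changed sign. With no block term Ptprb had -0.01, Akap6 -0.10 and Cdh3 -0.07. With a random block Akap6 had -0.05 and Cdh3 -0.02, in the first block alone and with only the groups compared Ptprb had -0.03, Akap6 -0.12 and Cdh3 0.00, with array weights Akap6 had -0.03, with a sex term Akap6 had 0.00 and Cdh3 -0.07, and with Y-linked signal only Ptprb and Cdh3 had -0.04. Leaving out 1 array gave -0.05 to 0.22 for Ptprb, -0.10 to 0.11 for Akap6 and -0.05 to 0.18 for Cdh3.

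Counts of clusters called moved more. Between Mst1KO_S1_S2 and WT_S1_S2 116 were called, against 23 to 69 over the 4 settings that moved it by over 1.5 times (the first block only, only the groups compared, a sex term and Y-linked signal only). Leaving out 1 array gave 66 to 174, with 66 to 77 without WT_S1_S2 replicate 1 or 2 or any 1 Mst1KO_S1_S2 array. Between Mst1KO_S3 and WT_S3 1415 were called, against 475 to 858 over 5 such settings (no block, a random block, the first block only, only the groups compared and Y-linked signal only). Leaving out 1 array gave 783 to 1399, the lowest without Mst1KO_S3 replicate 5 (783) and 2 (871). Fewer arrays entered the first-block, compared-groups and Y-signal fits, and for the others the cause was not tested. Ptprb has no value among clusters above the negative control mean, since it lies below it, and each gene has only 1 cluster, so no other could be tried. No paired analysis was possible because the labels give no replicate numbers. Signal near the negative controls limits Ptprb, and at S3 also Akr1c18 and Cdh3, while Csf1 and Akap6 exceeded only the control medians there.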
